A study of Mus musculus with 6 samples.

Results

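The genes described here encode the subunits of the phosphoprotein phosphatases PP1 to PP6, the enzymes that remove phosphate from serine and threonine in most cell proteins. They were taken by symbol, as every gene of the deposited count table whose name starts with Ppp1, Ppp2, Ppp3, Ppp4, Ppp5 or Ppp6, with pseudogenes marked -ps and antisense genes ending in os left out. This gave 76 of 55335 genes, 12 of them catalytic and 64 regulatory by symbol. They were measured by bulk RNA-seq in CD4 T cells of the mouse colon lamina propria. The donors were TcfGFP mice, whose GFP reports the Tcf7 locus, and naive splenic CD4 T cells of theirs caused colitis once placed in Rag1 KO hosts, animals without T or B cells. Both groups share that donor strain, host and disease. One group is GFP-positive (TCF7+, called stem-like in the labels) and the other GFP-negative (TCF7-, called effector), with 3 libraries each. No ages were given. Nothing states that the replicates are separate mice, and p-values thus reflect the spread of these samples alone, which may be technical.

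PP1 and PP2A have few catalytic subunits and many regulatory ones. The regulatory subunit decides where the enzyme sits in the cell and what it dephosphorylates, so the mRNA of 1 catalytic gene serves many holoenzymes. PP3 is calcineurin, the calcium-activated phosphatase that sends NFAT factors into the nucleus after the T cell receptor fires and that cyclosporin and tacrolimus block. PP4 and PP6 are relatives of PP2A with fewer known partners, and PP5 is represented here by the catalytic gene Ppp5c alone.

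Library totals ran from 4309500 to 7462076 counts, and 3 counts equalled 0.43 to 0.69 CPM (counts scaled to a common TMM-adjusted library total). For Tcf7 itself the GFP-negative replicates 1 to 3 read 121.1, 140.5 and 71.3 CPM and the GFP-positive ones 237.4, 183.0 and 140.8 CPM, groups that did not overlap. Each of 8 T cell markers was present in every library, together 0.506% to 0.722% of counts. GFP-positive replicate 3 stood apart, since 12 myeloid markers summed to 0.706% of its counts against 0.0140% to 0.0197% in the other 5 libraries, and 9 markers of antigen-presenting and B cells to 0.656% against 0.0182% to 0.0429%. In bulk libraries fewer cells of a type and less RNA per cell cannot be told apart.

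Of the 76 genes, 54 passed edgeR's expression filter, all 12 catalytic genes and 42 regulatory ones. One gene, Ppp1cc, passed the test, and it was lower in GFP-positive cells (edgeR quasi-likelihood test with Benjamini-Hochberg adjustment over 11074 genes, threshold 0.05). That is 1.85% of the tested phosphatase genes, where 0.108% of all tested genes passed in either direction and 0.0722% passed as lower. Log2 fold changes, given throughout as GFP-positive minus GFP-negative, were positive for 20 and negative for 34 of the 54 genes, with a median of -0.08 against 0.02 over all tested genes. CPM of the groups did not overlap for 6 genes that were higher in GFP-positive cells and 7 that were lower, 11.1% and 13% of the 54, where 7.25% and 8.8% of all tested genes were so placed. The 6 were Ppp2cb, Ppp1r10, Ppp1r15a, Ppp1r15b, Ppp2r3d and Ppp6r3, and the 7 were Ppp1ca, Ppp1cc, Ppp1ccb, Ppp3cc, Ppp2r1a, Ppp2r5c and Ppp4r2. Ppp1cc and its copy Ppp1ccb, described below, may share reads. The groups came close for Ppp2cb (highest GFP-negative 5.43, lowest GFP-positive 5.54 CPM) and Ppp4r2 (lowest GFP-negative 14.55, highest GFP-positive 14.48 CPM). On TPM, which also divides by gene length and by another total, 3 of the 6 and 6 of the 7 stayed free of overlap, and Ppp1r15a, Ppp2r3d, Ppp6r3 and Ppp2r5c did not. Ppp2r5a and Ppp6r1 were lower without overlap on TPM and not on CPM, so TPM gave 3 higher and 8 lower genes, 5.56% and 14.8% of the 54, where 5.06% and 11% of all tested genes in the TPM table were so placed.

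PP1 catalytic subunits came first in level. The 3 working genes Ppp1ca, Ppp1cb and Ppp1cc encode PP1 alpha, beta and gamma, which share nearly all of the catalytic core and differ mainly at their ends. PP1 gamma is the form known at kinetochores and chromosomes in dividing cells. Their coding sequences were 75.8% (Ppp1ca and Ppp1cb), 79.8% (Ppp1ca and Ppp1cc) and 76.1% (Ppp1cb and Ppp1cc) identical over the aligned bases of one GENCODE M21 transcript each, and their longest identical runs were 20, 44 and 23 bases.

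Ppp1cc (ENSMUSG00000004455.16, mm10 chr5:122158278-122175273, plus strand) is shown with the 250 bases before its RefSeq start, because it is the 1 phosphatase gene that passed the test. The stretch is chr5:122158025-122158274 on the plus strand of GRCm38.p6, a patch release of the mm10 assembly, it is written 5′ to 3′, and 72.0% of it is G or C. No capitals appear in it, since neither it nor the 50 bases after the start held any of 4 motifs searched on both strands, CTTTGA (TCF/LEF core), TTTGAA (cell cycle homology region), TGACGTCA (cAMP response element) and TTTCCCGC (E2F site). CTTTGA and TTTGAA can share bases with each other.
Ppp1cc promoter: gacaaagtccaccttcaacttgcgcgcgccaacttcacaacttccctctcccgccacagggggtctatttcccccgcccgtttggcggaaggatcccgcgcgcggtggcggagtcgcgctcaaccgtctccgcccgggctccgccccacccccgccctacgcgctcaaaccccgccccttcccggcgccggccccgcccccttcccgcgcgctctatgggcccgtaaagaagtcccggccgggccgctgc

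Ppp1cc fell in GFP-positive cells. The GFP-negative replicates 1 to 3 read 128.3, 152.6 and 98.5 CPM and the GFP-positive ones 53.7, 58.6 and 58.8 CPM, from 255 to 671 counts a library. The 3 GFP-positive libraries lay close together and all GFP-negative ones lay well above them. Means were 126.5 ± 27.1 and 57.0 ± 2.90 CPM (SD, n = 3 each), which gave a log2 fold change of -1.15 ± 0.19 (SE) and passed with an edgeR adjusted p of 0.0382. That p is near the threshold. Without a single library the log2 fold change ran from -1.29 to -0.997, and edgeR's adjusted p was 0.0842, 0.312 and 0.0705 without GFP-negative replicates 1, 2 and 3 and 0.123, 0.289 and 0.0457 without GFP-positive replicates 1, 2 and 3. With the filter applied anew each time, the call therefore held only when GFP-positive replicate 3, the one rich in myeloid markers, was left out, and there 0.37% of 11361 tested genes passed.

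Ppp1ccb (ENSMUSG00000100153.2, mm10 chr7:119739926-119742226, plus strand) is annotated as a transcribed processed pseudogene, a copy of Ppp1cc mRNA set back into the genome. One transcript of each was compared, Ppp1cc-201 and Ppp1ccb-202. Of 1438 aligned columns, 1435 (99.8%) were identical, 0 were substitutions and 3 were gaps. All 1011 coding bases of that Ppp1cc transcript were found in the copy. Other transcripts of Ppp1cc, which may differ, were not compared. Reads from the shared stretch cannot be assigned by sequence, so both values are uncertain. Ppp1ccb held 2.67% to 3.58% as many counts as Ppp1cc in every library, which is 4.26, 5.46 and 2.63 CPM against 1.73, 1.84 and 1.86 CPM. Those values rest on 8 to 24 counts, and the log2 fold change of -1.17 ± 0.77 did not pass (edgeR adjusted p 0.667). With both genes summed into 1, the log2 fold change was -1.15 and edgeR's adjusted p 0.0370.

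Ppp1ca (chr19:4192065-4195420, plus strand) had the highest level of all 76 genes, with a mean of 697 TPM over the 6 libraries. Its GFP-negative libraries read 666, 686 and 746 CPM and its GFP-positive ones 564, 519.8 and 496 CPM, each in the order of the replicate numbers, as below. Every GFP-negative library was above every GFP-positive one. The log2 fold change was -0.41 ± 0.14 and did not pass the test (edgeR adjusted p 0.296). Of its exonic bases 8.93% overlap Rad9a on the other strand. Ppp1cb (chr5:32458843-32517433, plus strand) overlapped between the groups, at 123.5, 128.2 and 116.2 CPM against 137.3, 132.4 and 115.2 CPM, and its log2 fold change was 0.06 ± 0.15 (edgeR adjusted p 0.924). Its sign turned on TPM, where the value was -0.0020.

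**Figure D1:**
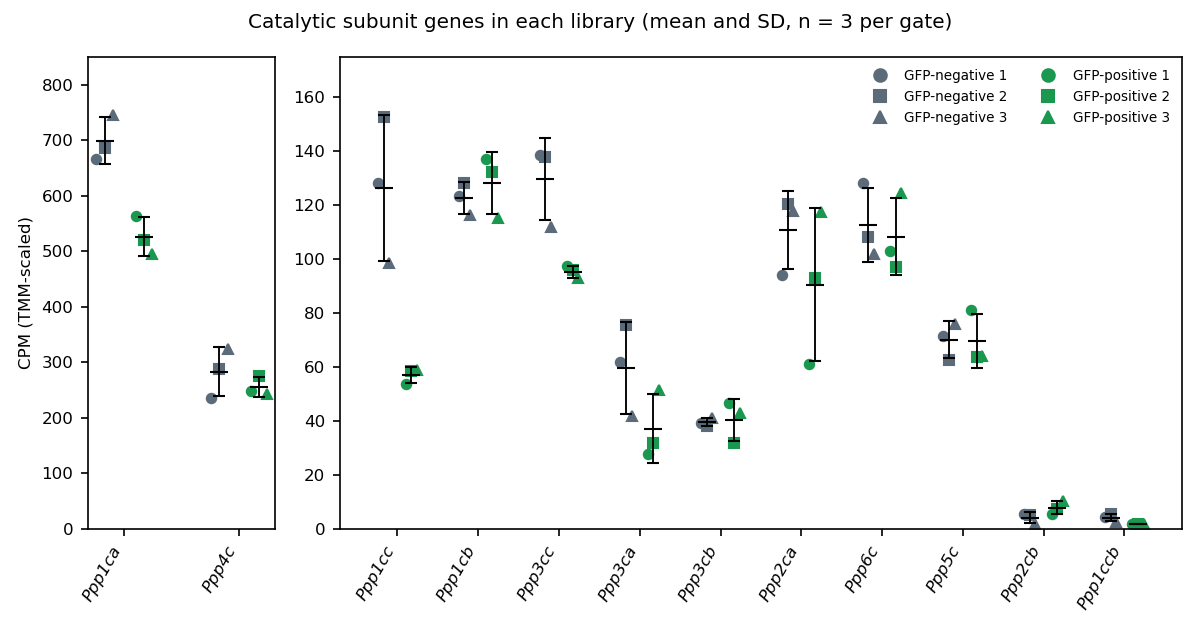
TMM-scaled CPM (linear axes, one range per panel) of the catalytic subunit genes in each library, with points for libraries and the mean and SD of the 3 libraries of each gate. Ppp1cc lies at 53.7 to 58.8 CPM in the GFP-positive libraries and at 98.5 to 152.6 CPM in the GFP-negative ones, while the libraries of Ppp1cb, Ppp5c and Ppp6c overlap.

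As a share of the summed TPM of Ppp1ca, Ppp1cb and Ppp1cc, Ppp1cc made up 11.97%, 13.6% and 8.57% in the GFP-negative libraries against 6.22%, 7.27% and 7.66%. The mean share was 11.4% ± 2.55 against 7.05% ± 0.741 (SD, n = 3 each), a difference of -4.32 percentage points. Ppp1cb took 3.45% ± 0.245 against 4.95% ± 0.228, and Ppp1ca the bulk with 85.2% ± 2.78 against 88.0% ± 0.678. The libraries of the gates did not overlap for the shares of Ppp1cc and Ppp1cb and overlapped for that of Ppp1ca. The summed TPM of the 3 genes was 904, 984 and 959.7 against 755, 663 and 576. These shares were described and not tested.

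**Figure D2:**
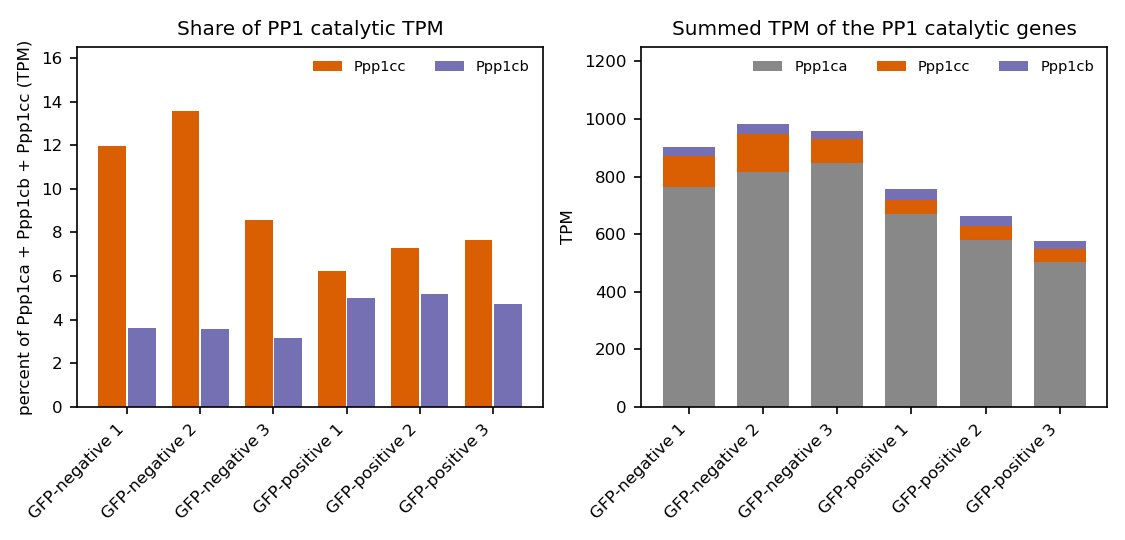
Levels in TPM of Ppp1ca, Ppp1cb and Ppp1cc in each library (bars from 0), and the shares of Ppp1cc and Ppp1cb in the sum of the 3 genes in percent. The share of Ppp1cc is 8.57% to 13.6% in GFP-negative and 6.22% to 7.66% in GFP-positive libraries, and that of Ppp1cb is higher in each GFP-positive library.

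Mitotic genes were read beside Ppp1cc. All 20 members of a list of mitotic genes, the proliferation marker Mki67 and the kinase Cdk1 among them, had negative log2 fold changes, with a median of -1.23, 0 past the test and 6 with all GFP-positive libraries lower, a placing that 8.8% of all tested genes had. Cdk1 stood at 44.4, 57.5 and 97.8 CPM against 28.8, 37.5 and 31.6 CPM. Ccnb2, a mitotic cyclin, went from 109.9 ± 55.9 to 33.9 ± 11.3 CPM (edgeR adjusted p 0.219), and Cenpf, a kinetochore protein, from 36.02 ± 21.3 to 13.97 ± 2.30 CPM (edgeR adjusted p 0.242). The list's mean log2(CPM + 1) was 4.79, 5.69 and 6.24 in the GFP-negative libraries against 3.91, 4.53 and 4.64. Within the GFP-negative libraries replicate 3 was highest for the list and lowest for Ppp1cc. The part of cell division in the Ppp1cc result was not tested.

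PP1 also has partners that carry other names. Of 25 such genes 18 were tested, 8 with positive and 10 with negative log2 fold changes (median -0.12), and 0 passed. The members with the smallest p were Cdca2 (Repo-Man), which brings PP1 gamma to chromosomes as mitosis ends, at -1.68 ± 0.43 (edgeR adjusted p 0.169), Knl1, the kinetochore scaffold that binds PP1, at -1.19 ± 0.40 (edgeR adjusted p 0.305), and Phactr2, an actin-binding PP1 partner, at -0.74 ± 0.43 (edgeR adjusted p 0.619).

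On CPM, both PP1 regulatory genes that act on eIF2 alpha read higher in each GFP-positive library than in any GFP-negative one, but neither passed the test, and on TPM the groups of Ppp1r15a overlapped. GADD34, encoded by Ppp1r15a, is induced by stress, and CReP, encoded by Ppp1r15b, is made constitutively. Each brings PP1 to phosphorylated eIF2 alpha and so lets translation resume. Ppp1r15a stood second among the 76 genes with a mean of 618 TPM. Its 250 bases before the RefSeq start (chr7:45526269-45526518, minus strand, GRCm38.p6, 54.4% G or C, 5′ to 3′) are shown because they hold a cAMP response element, TGACGTCA, here in capitals. That motif was found in 5 (6.85%) of 73 promoters of the phosphatase genes, from Ppp1r12c, Ppp1r15a, Ppp2ca and Ppp2r2d. It was found in 1.79% of all 32851 promoters of the table. The 73 promoters belong to 60 genes. The other motifs were found in 10 (CTTTGA), 9 (TTTGAA) and 3 (TTTCCCGC) of the 73. These are 13.7%, 12.3% and 4.11%, beside 16%, 17.9% and 1.07% of all promoters. The median share of G or C in the 250 bases was 62.4% for the 73 promoters and 52.4% for all. The part of base composition in the motif counts was not tested. A match is a description and does not show that a factor binds.
Ppp1r15a promoter: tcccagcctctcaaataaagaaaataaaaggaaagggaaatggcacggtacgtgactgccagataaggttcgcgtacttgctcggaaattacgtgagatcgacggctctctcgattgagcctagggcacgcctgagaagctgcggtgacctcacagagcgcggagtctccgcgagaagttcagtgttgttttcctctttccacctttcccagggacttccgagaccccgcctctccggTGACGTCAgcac

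Ppp1r15a stood at 534.6, 561.2 and 538.1 CPM in the GFP-negative libraries against 897.4, 631.5 and 649.6 CPM. The groups did not overlap on CPM, and GFP-positive replicate 1 was far above the rest. The log2 fold change was 0.42 ± 0.16 and did not pass (edgeR adjusted p 0.382), and it was 0.23 without GFP-positive replicate 1. Ppp1r15b stood at 55.6, 61.6 and 62.9 CPM against 82.4, 67.4 and 75.2 CPM, again without overlap (0.32 ± 0.18 on the log2 scale, edgeR adjusted p 0.609).

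Of 18 stress genes induced by tissue dissociation, 16 had positive log2 fold changes (median 0.32), as had 5712 of all 11074 tested genes, and 0 passed. Higher without overlap was 1 gene, a placing that 7.25% of all tested genes had. It was the heat shock gene Hspa1b, at 239.4, 181.2 and 155.5 CPM against 276.6, 275.2 and 272.9 CPM. The immediate early genes Fos and Jun overlapped between the groups, with means of 335.2 ± 152 against 643.4 ± 198 CPM (edgeR adjusted p 0.460) and 1485 ± 324 against 1886 ± 206 CPM (edgeR adjusted p 0.542). The list's mean log2(CPM + 1) was 9.19, 8.76 and 8.61 in the GFP-negative libraries against 9.14, 9.06 and 9.50, so the groups overlapped. The highest value was that of GFP-positive replicate 3, the library rich in myeloid markers. The part of handling stress in the values of Ppp1r15a and Ppp1r15b was not tested. The integrated stress response, of which GADD34 and CReP are brakes, had 6 positive and 8 negative values among 14 tested genes (median -0.04, 0 passed). The smallest p there belonged to the eIF2 alpha kinases Eif2ak2 (-0.72 ± 0.45, edgeR adjusted p 0.649) and Eif2ak4 (1.09 ± 0.72, edgeR adjusted p 0.667) and to the stress-induced Trib3 (1.38 ± 0.98, edgeR adjusted p 0.695). Atf4, the factor made when eIF2 alpha is phosphorylated, stood at 157.4 ± 14.3 and 168.9 ± 17.1 CPM, which differed by less than 1 SD.

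PP1 has the most regulatory genes of these families. Of 40 PP1 regulatory genes 22 were tested, 11 positive and 11 negative, and 0 passed. Ppp1r10 (PNUTS), a nuclear subunit that guides PP1 in transcription, stood at 38.4, 26.4 and 29.2 CPM against 41.6, 47.4 and 43.3 CPM. All GFP-positive values were higher (0.49 ± 0.24 on the log2 scale, edgeR adjusted p 0.513). Its neighbours in function overlapped, Ppp1r8 (NIPP1), a nuclear inhibitor and splicing-associated subunit, at -0.08 ± 0.32 and Ppp1r7 (SDS22), a conserved PP1 partner needed for enzyme maturation, at -0.15 ± 0.23.

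Of the 8 PP1 regulatory genes with the highest TPM, Ppp1r15a and Ppp1r15b are described above, and the other 6 overlapped between the gates. Ppp1r18 (phostensin), which ties PP1 to actin in leukocytes, had a mean of 203 TPM over 6 libraries and a log2 fold change of -0.08 ± 0.15. Ppp1r11 (inhibitor-3) had 146 TPM and -0.17 ± 0.17, and Ppp1r12a (MYPT1), which targets PP1 to myosin, had 114 TPM and 0.11 ± 0.14. Ppp1r16b (TIMAP), a membrane-anchored relative of MYPT1, had 65.7 TPM and -0.19 ± 0.16, Ppp1r35, a centrosome protein, 45.8 TPM and -0.21 ± 0.35, and Ppp1r2 (inhibitor-2) 39.2 TPM and -0.18 ± 0.23. Adjusted p-values of these 6 genes in edgeR lay between 0.746 and 0.897.

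The remaining PP1 genes with the smallest p were less abundant. Ppp1r3b, which brings PP1 to glycogen, ranged from 53.3 to 93.4 CPM in GFP-negative and from 25.6 to 65.0 CPM in GFP-positive libraries (-0.58 ± 0.34, edgeR adjusted p 0.631), and its log2 fold change was -0.27 without GFP-positive replicate 1. The myosin phosphatase relatives Ppp1r12b and Ppp1r12c were at 0.74 ± 0.56 and -0.54 ± 0.41 (edgeR adjusted p 0.718 each). Ppp1r14c, a phosphorylation-dependent PP1 inhibitor, ran from 0 to 9.89 CPM in GFP-positive libraries and from 4.61 to 13.2 CPM in GFP-negative ones (-1.20 ± 1.13, edgeR adjusted p 0.792), and 29.2% of its exonic bases are shared with Gm26752 on the opposite strand. Ppp1r3f stood at 1.55, 2.27 and 1.10 CPM against 5.02, 1.15 and 4.88 CPM (1.1696 ± 0.87, edgeR adjusted p 0.712). Its exons overlap those of Foxp3 on the opposite strand over 5.16% of their bases, and reads of the pair cannot be told apart without strand. The GFP-negative libraries held 12.99, 33.0 and 2.41 CPM of Foxp3, the regulatory T cell factor, and the GFP-positive ones 0, 0 and 0.861 CPM. Among the GFP-negative libraries replicate 2 was highest and replicate 3 lowest for both genes, while Ppp1r3f was highest in GFP-positive libraries with little or no Foxp3. The part of Foxp3 reads in the values of Ppp1r3f was not tested.

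None of the PP2A genes passed the test. Ppp2ca and Ppp2cb encode near-identical catalytic proteins. Ppp2ca stood at 94.2, 120.3 and 118 CPM against 61.0, 92.9 and 117.6 CPM, overlapping groups (-0.29 ± 0.22, edgeR adjusted p 0.718). Leaving out GFP-positive replicate 1 gave -0.08, and leaving out replicate 3 of that gate gave -0.52. A gene on the opposite strand covers 39.9% of its exonic bases and was not analysed here. Ppp2cb was low, at 5.43, 5.23 and 1.75 CPM against 5.54, 7.36 and 10.3 CPM (0.90 ± 0.62, edgeR adjusted p 0.684), and 0.54 without GFP-negative replicate 3. Ppp2ca made up 77.3%, 81.9% and 93.0% of the PP2A catalytic TPM in the GFP-negative libraries against 68.3%, 71.2% and 69.1%, shares that did not overlap and that rest on the few counts of Ppp2cb.

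The scaffold Ppp2r1a, on which PP2A is built, was the third gene in level with a mean of 254 TPM. It stood at 321, 325 and 332 CPM against 246, 316 and 283 CPM, without overlap, and its log2 fold change was -0.21 ± 0.14 (edgeR adjusted p 0.667). Ppp2r1b, the minor scaffold, was at -0.08 ± 0.30 and shares 22.2% of its exonic bases with Sik2 on the other strand. Ppp2r1a made up 87.0% to 93.8% of the scaffold TPM in the 6 libraries.

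The B subunits choose the substrates of PP2A. Of the B55 genes Ppp2r2a was at 0.13 ± 0.17, Ppp2r2d, known from screens in mouse T cells as a brake on their expansion in tumours, at -0.30 ± 0.29, and the scarce Ppp2r2c at -0.03 ± 1.15. Among B56 genes Ppp2r5c led with a mean of 139 TPM and stood at 398, 419 and 478 CPM against 392, 392 and 340.4 CPM (-0.21 ± 0.14, edgeR adjusted p 0.683). Ppp2r5a stood at 58.5, 82.5 and 86.0 CPM against 38.5, 54.5 and 61.1 CPM, with 1 GFP-positive library above the lowest GFP-negative one (-0.56 ± 0.23, edgeR adjusted p 0.428). The other B56 genes Ppp2r5b, Ppp2r5d and Ppp2r5e were at 0.33 ± 0.35, 0.02 ± 0.28 and -0.05 ± 0.21. Of the B'' genes, Ppp2r3c (G5PR), known for lymphocyte survival in mice, was at -0.71 ± 0.34 (edgeR adjusted p 0.513) from 24.4, 33.9 and 17.8 CPM against 18.9, 12.4 and 15.2 CPM, and at -0.45 without GFP-negative replicate 2. Ppp2r3d was at 0.72 ± 0.40 (edgeR adjusted p 0.599) from 12.99, 7.504 and 8.99 CPM against 14.6, 20.9 and 13.3 CPM.

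**Figure D3:**
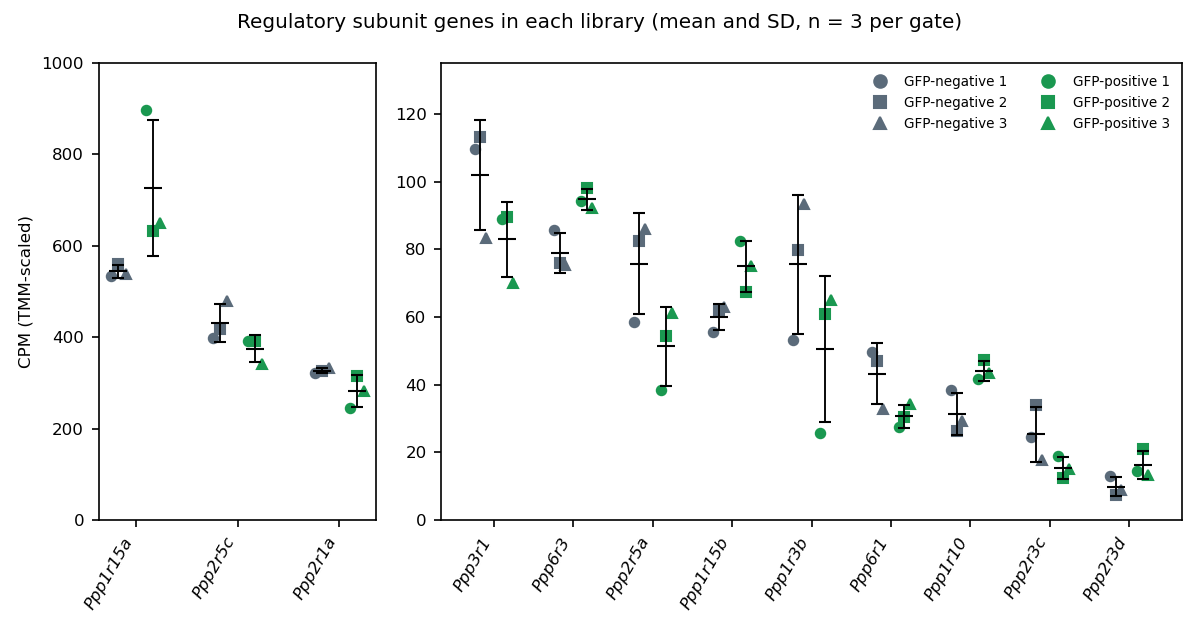
TMM-scaled CPM (linear axes, one range per panel) of regulatory subunit genes in each library, with the mean and SD of the 3 libraries of each gate. Ppp1r15a lies at 534.6 to 561.2 CPM in GFP-negative and 631.5 to 897.4 CPM in GFP-positive libraries, and none of the genes drawn passed the test.

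Other proteins tune PP2A itself. Of 16 activators, inhibitors and adaptors 4 had positive and 12 negative log2 fold changes (median -0.21), and 0 passed. Those with the smallest p were Sgo2a (shugoshin-2), which holds PP2A at centromeres, at -1.74 ± 0.80, Anp32e, a PP2A inhibitor and histone chaperone, at -0.37 ± 0.18, and Cip2a, a PP2A inhibitor found in proliferating cells, at -0.91 ± 0.46 (edgeR adjusted p 0.484, 0.531 and 0.551). STRIPAK is the complex in which PP2A holds STE20-type kinases. Its list had 16 entries, of which 1 was misspelt and could not be matched, and 13 were tested, 8 positive and 5 negative. The kinase Stk24 (MST3) was lower, at 363.6, 356.8 and 327.6 CPM against 166.1, 187.1 and 178.9 CPM (-0.98 ± 0.13, edgeR adjusted p 0.0127), and it was the only gene of these partner lists to pass. Its relative Stk26 (MST4) stood at 109.5 ± 6.84 against 83.5 ± 6.73 CPM (-0.39 ± 0.16, edgeR adjusted p 0.410), and Strn4, a striatin scaffold, at 65.3 ± 12.99 against 54.2 ± 5.28 CPM (edgeR adjusted p 0.721).

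Calcineurin is built of a catalytic A and a calcium-binding B subunit. Ppp3cc (A gamma) was the leading A gene, 80.6% ± 0.939 of their summed TPM in GFP-negative and 79.4% ± 3.51 in GFP-positive cells (SD, n = 3 each). It stood at 138.8, 138.0 and 112.1 CPM against 97.3, 95.9 and 92.9 CPM. No libraries overlapped, and the log2 fold change of -0.44 ± 0.15 did not pass (edgeR adjusted p 0.327). Ppp3ca (A alpha) stood at 61.8, 75.5 and 41.7 CPM against 27.5, 31.96 and 51.6 CPM, where GFP-positive replicate 3 lay among the GFP-negative libraries (-0.68 ± 0.29, edgeR adjusted p 0.442). Without that library the value was -0.997 (edgeR adjusted p 0.190). Ppp3cb (A beta), the A gene that mouse T cells are known to need most, stood at 39.4 ± 1.52 and 40.5 ± 7.80 CPM (0.04 ± 0.23), a difference within the spread, and its sign turned on TPM to -0.0415.

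The B subunit Ppp3r1 stood at 109.5, 113.2 and 83.3 CPM against 88.8, 89.7 and 70.1 CPM, overlapping groups (-0.30 ± 0.18, edgeR adjusted p 0.636, and -0.19 without GFP-positive replicate 3), and 14.3% of its exonic bases also belong to Wdr92 on the same strand. Ppp3r2, the other B gene, had no count in any library. The summed TPM of the A genes was 157.3 ± 21.8 in GFP-negative and 112.3 ± 8.51 in GFP-positive cells. Of 22 tested genes of the calcineurin pathway, from calcium channels to NFAT, 11 were positive and 11 negative (median -0.01), and 0 passed. Rcan3, a calcineurin inhibitor, was at -1.09 ± 0.44, Orai1, the calcium channel pore, at -0.40 ± 0.20 and Itpr1, a calcium release channel, at -0.29 ± 0.17 (edgeR adjusted p 0.419, 0.534 and 0.625).

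For PP4, PP5 and PP6 the catalytic genes overlapped between the gates. Ppp4c, which acts in DNA repair and lymphocyte development in mice, stood at 236, 288 and 324 CPM against 248.5, 276 and 243 CPM (-0.15 ± 0.15, edgeR adjusted p 0.804). Its 4 tested regulatory genes Ppp4r1, Ppp4r2, Ppp4r3a and Ppp4r3b were all negative, between -0.34 and -0.02. Of them Ppp4r2 did not overlap, at 16.48, 14.6 and 17.5 CPM against 14.03, 14.5 and 11.2 CPM (-0.29 ± 0.34, edgeR adjusted p 0.834). Ppp5c, a phosphatase that binds Hsp90, stood at 70.1 ± 6.78 and 69.7 ± 10.01 CPM (-0.01 ± 0.19, edgeR adjusted p 0.992). Ppp6c stood at 112.8 ± 13.8 and 108.3 ± 14.3 CPM (-0.06 ± 0.16, edgeR adjusted p 0.939).

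The PP6 subunits, which dock PP6 on its targets, went apart in sign. Ppp6r3 stood at 85.7, 76.0 and 75.2 CPM against 94.2, 98.2 and 92.1 CPM without overlap (0.26 ± 0.16, edgeR adjusted p 0.636). Ppp6r1 stood at 49.6, 47.1 and 32.9 CPM against 27.4, 30.6 and 34.1 CPM (-0.49 ± 0.25, edgeR adjusted p 0.535), and Ppp6r2 was at 0.03 ± 0.24. The difference between these genes was not tested. Of 7 partners of PP5 and PP6, 4 were positive and 3 negative, and 0 passed. Tipin, a replication fork protein taken here as a PP6 partner, had the smallest p at -0.92 ± 0.27 (edgeR adjusted p 0.234), followed by the ankyrin subunits of PP6 Ankrd44 (0.22 ± 0.15, edgeR adjusted p 0.684) and Ankrd52 (-0.50 ± 0.42, edgeR adjusted p 0.750).

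**Figure D4:**
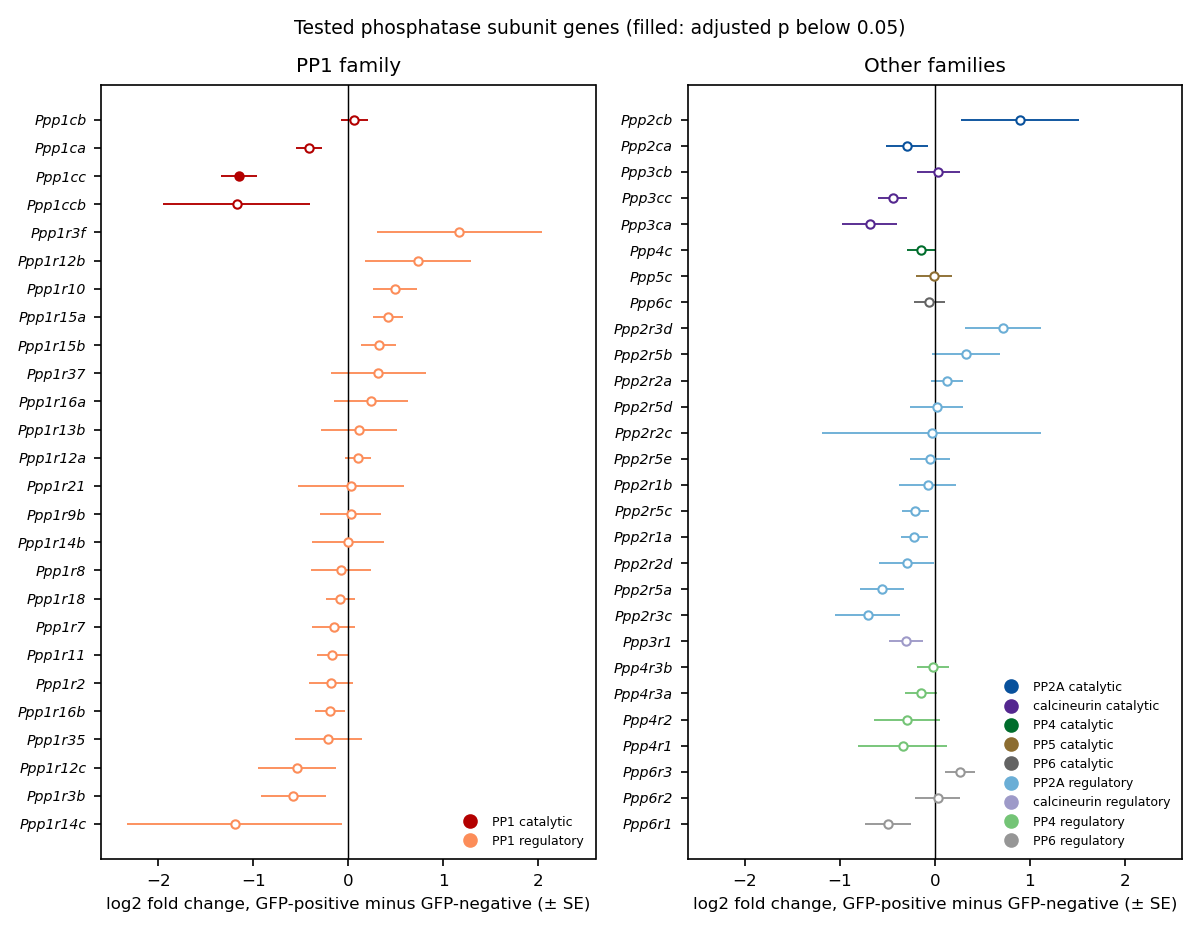
Log2 fold changes (GFP-positive minus GFP-negative) of the 54 tested phosphatase genes with their SE, by enzyme family; a filled point marks an edgeR adjusted p below 0.05. Ppp1cc at -1.15 is the filled point, and 20 genes lie right and 34 left of 0.

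Per length, the catalytic genes of GFP-negative cells ranked by mean TPM as Ppp1ca, Ppp4c, Ppp3cc, Ppp1cc, Ppp6c, Ppp5c, Ppp2ca, Ppp1cb, Ppp3ca, Ppp3cb, Ppp2cb and Ppp1ccb. In GFP-positive cells Ppp1cc (46.4 TPM) came after Ppp6c (67.7 TPM) and Ppp5c (62.4 TPM), and Ppp2cb (14.5 TPM) came before Ppp3cb (12.8 TPM) and Ppp3ca (10.2 TPM). Over the 6 libraries Ppp1ca ran from 504 to 847 TPM and Ppp4c from 145.4 to 216 TPM, ranges that did not meet each other or that of Ppp3cc (79.9 to 138.5 TPM). Further down neighbours overlapped, as with Ppp1cc (44.1 to 133.5 TPM), Ppp6c (61.6 to 83.4 TPM) and Ppp5c (52.4 to 77.6 TPM), and with Ppp3ca, Ppp3cb and Ppp2cb, whose means over 6 libraries were 13.8, 12.9 and 11.4 TPM.

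The 22 genes that did not pass the filter were all regulatory. Of these 9 had no count in any library, which at this depth allows up to 0.43 to 0.69 CPM a library, namely Ppp1r17, Ppp1r1c, Ppp1r26, Ppp1r36, Ppp1r3a, Ppp1r3g, Ppp2r2b, Ppp3r2 and Ppp4r4. They include the muscle glycogen subunit Ppp1r3a and the neuronal Ppp2r2b. Another 4 had counts in GFP-positive replicate 3 alone, Ppp1r3c with 26 and Ppp1r9a, a neuronal actin-binding subunit, with 7, beside Ppp1r1a and Ppp1r42. Ppp1r1b (DARPP-32), the dopamine-regulated PP1 inhibitor, had 69 counts in that library, 5 in GFP-negative replicate 3 and 0 in the others. Ppp2r3a, a PP2A B'' gene, had 3, 8 and 0 counts in the GFP-negative libraries against 0, 0 and 12. GFP-positive replicate 3 also held 0.0381% of its counts in epithelial and 0.0425% in stromal markers, against at most 0.00723% and 0.00905% elsewhere, and the part of other cells in these counts was not tested.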

How the data were processed

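The authors deposited raw counts per gene as whole numbers and TPM, for 3 GFP-positive and 3 GFP-negative libraries. PCR-amplified cDNA, primed by oligo-dT and random hexamers, was tagged by a transposase, per the labels' protocols, so neither strand nor molecules were marked, and counting floors cover counting error only. The submitters' processing notes name the mm10 build and STAR 2.7.10b, fastp 0.23.3, SAMtools 1.17 and deepTools 3.5.1. The counter, the annotation and the treatment of reads that match several places were not given in the sources used here.

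Phosphatase genes and all partner and marker lists were chosen with earlier results of these data known. All 76 genes were found in the TPM table and in GENCODE M21 (74 with version), whose 1-based mm10 coordinates are printed. Counts of all genes were fitted with edgeR 4.0.16 (R 4.3.3), with TMM factors, filterByExpr by group (minimum count 10), robust quasi-likelihood F-test, group as the only term, and Benjamini-Hochberg adjustment over 11074 genes at 0.05. The SE was derived from the log2 fold change and F. The script was tested on simulated data. CPM uses TMM-scaled totals, and levels of different genes were compared by TPM.

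Named were all catalytic, PP2A, calcineurin, PP4 and PP6 genes, of the PP1 regulatory genes the 12 with the smallest p and the 8 with the highest TPM, and up to 3 genes per list with the smallest p. Others were named after their values were seen. Promoters came from RefSeq (GRCm38.p6), which had entries for 60 of the 76 genes, 73 promoters in all, and motifs were searched from 250 bases before to 50 after the start. No libraries were duplicates (chi-square over degrees of freedom at least 10.7 for replicate pairs). DESeq2 1.42.0, limma 3.58.1 (voom, and on TPM), other scalings and filters, a replicate block and leaving out each library were alternatives. Summing Ppp1cc with Ppp1ccb, and leaving out libraries on the genes of the full data, were added after seeing the data.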

Additional observations from a re-analysis of the deposited data

How the results depend on the processing

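The number of phosphatase genes past the threshold was 1 (Ppp1cc) in the edgeR test and stayed 1 with RLE factors, library size alone, no filter, DESeq2, the replicate block and Ppp1cc summed with Ppp1ccb. It was 0 with a filter of 1 CPM in 3 libraries, limma-voom and limma on log2(TPM + 1), filtered or not, and on log2(TPM + 0.1), and 0 to 1 with a library left out. At an unadjusted p below 0.05 the main test had 6 of the 54 phosphatase genes and 1138 of all 11074 tested genes, similar shares. Over these alternatives edgeR's adjusted p of Ppp1cc was 0.0511 with the 1 CPM filter, limma's was 0.102 with voom and 0.425 to 0.490 on TPM, and its log2 fold change stayed between -1.29 and -0.991 throughout. On the genes of the full data, chosen after seeing the data, the call also held without GFP-negative replicate 3 (edgeR adjusted p 0.0437). Counts over all genes moved more, from 12 in the main test to 373 with no filter and 200 with DESeq2. They were 81 with the replicate block, 19 with library size alone and 5 with limma-voom. On log2(TPM + 1) they were 0, and on log2(TPM + 0.1) 11. With a library left out they ran from 0 to 42, or 0 to 50 on the genes of the full data. DESeq2 thus called 1 of 54 phosphatase genes beside 200 of 11074 genes, and no filter 1 of 67 beside 373 of 20982. In these settings the share of phosphatase genes was close to that of all genes, unlike in the main test.

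The share of Ppp1cc in PP1 catalytic TPM differed by -5.72 to -3.22 percentage points with a library left out, -5.29 on CPM and -4.26 with Ppp1ccb. Of 22 genes recomputed, 18 kept their sign. Ppp1cb turned to -0.0020 on log2(TPM + 1), filtered or not, and -0.0023 on log2(TPM + 0.1). Ppp3cb turned to -0.0415 on log2(TPM + 1), filtered or not, to -0.0460 on log2(TPM + 0.1) and ran from -0.0827 to 0.186 with a library left out. With a library left out Ppp5c ran from -0.139 to 0.0586 and Ppp6c from -0.163 to 0.0402. The cause was not tested.

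The groups share replicate numbers. Same-numbered libraries deviated from their group means with correlations of 0.104, 0.097 and 0.104 across genes. Each correlated best with its own number, a hint from the data and not the design. Since nothing states that equal numbers pair the libraries, the numbers were not taken as pairs, and the replicate block stayed an alternative. With the replicate block 81 genes and 1 phosphatase gene passed, Ppp1cc at -1.13 (edgeR adjusted p 0.0199).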

Other observations

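Serine/threonine phosphatases outside these families, chiefly the metal-dependent PPM enzymes, were described by a list. Of 24 tested genes of 29, 8 had positive and 16 negative log2 fold changes (median -0.08), and 0 passed edgeR's test. Pdp1, the phosphatase that activates pyruvate dehydrogenase, stood at 42.5, 25.7 and 23.2 CPM in GFP-negative and 17.5, 13.1 and 19.5 CPM in GFP-positive libraries (-0.86 ± 0.32, edgeR adjusted p 0.379). Pptc7, a mitochondrial phosphatase, stood at 9.50, 7.28 and 8.99 CPM against 17.5, 20.9 and 10.04 CPM (0.90 ± 0.41, edgeR adjusted p 0.482). Of the 24 genes, 1 was higher without overlap (Pptc7) and 2 were lower (Pdp1 and Ppm1d). Of all tested genes 7.25% and 8.8% were so placed. Ppm1b, which dephosphorylates kinases of stress and inflammatory signalling, overlapped between the groups (-0.49 ± 0.27, edgeR adjusted p 0.591).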
